A study of Mus musculus with 4 samples.

Results

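The BMP and Id genes are 10 genes of 1 signalling route: the ligand gene Bmp4, the receptor genes Bmpr1a and Bmpr2, the SMAD genes Smad1, Smad5 and Smad6, and the target genes Id1, Id2, Id3 and Id4. They were taken by name from the gene column of the deposited tables, where each of the 10 has 1 row, out of 22739 named genes in all. The source was CCE, a line of mouse embryonic stem (ES) cells from strain 129SV, kept on gelatin with 15% serum and the cytokine leukemia inhibitory factor (LIF). The cells received a short hairpin RNA against luciferase, an insect gene that mouse cells lack (shLuci, the control), or against Tex10 (shTex10). Each group had 2 libraries of poly(A) RNA, read as 100-bp single ends, and the 2 groups are set against each other to see how these genes stand after loss of Tex10. How many hairpins were used per target, and how long after delivery RNA was taken, is not given in the sources used here. Off-target effects of a hairpin cannot be told apart from those of losing Tex10.

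Bone morphogenetic proteins (BMPs) are secreted ligands that join type I receptors such as BMPR1A with type II receptors such as BMPR2. The activated type I receptor phosphorylates SMAD1 and SMAD5, which enter the nucleus with SMAD4 and turn on target genes, the Id genes among them, while SMAD6 and SMAD7 are inhibitory SMADs that the pathway itself induces. ID proteins are helix-loop-helix proteins without a DNA-binding region: they pair with E proteins and keep them off DNA. In ES cells BMP, or serum that carries BMP activity, acts with LIF to hold back neural differentiation, and Id genes are known mediators of that effect.

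The targeted gene was read first. Tex10 stood at 77.3 and 82.1 FPKM in shLuci and at 11.6 and 13.4 FPKM in shTex10, far below the controls, and the row of Invs overlaps its locus. FPKM scale sequenced fragments by transcript length and library size, so levels can be set side by side between genes. Tests used limma on log2(FPKM + 1) over the 11883 genes with a mean of at least 1 FPKM, with Benjamini-Hochberg adjustment and a threshold of 0.05, and every log2 change below is shTex10 minus shLuci on that scale, and is compressed for low genes. The tables keep no read totals, so the depth behind each value is unknown. The libraries held between 11533 and 12003 named genes at 1 FPKM or more. The summed FPKM of named genes was 613642 and 632067 in shLuci and 525878 and 537692 in shTex10, an offset that goes with the median log2 change of all genes tested, -0.14. With each library rescaled to the same named sum that median was 0.06. Changes as deposited are therefore also given relative to the as-deposited median of -0.14. Of all calls, 38.3% were higher as deposited and 62.9% after that rescaling. The design text speaks of biological replicates without naming separate cultures, and p-values therefore cover only the spread among these samples, which may be technical. With 2 libraries in each group, the smallest p an exact two-sided permutation test allows is 0.333.

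Id1, Id2, Id3 and Smad5 rose in shTex10, Id4 and Bmp4 fell, and Bmpr1a, Bmpr2, Smad1 and Smad6 did not pass the test. In ratios of mean FPKM the change was largest for Id2, 3.14-fold higher, followed by Id3 at 1.91-fold higher, Id4 at 1.83-fold lower and Id1 at 1.75-fold higher. All 10 genes met the expression filter. Of the 10, 4 were called higher, against 19.8% of all genes tested, and 2 lower, against 31.8%, together 6 against 51.6%. By at least 2-fold, 1 of the 10 (Id2) was called higher, against 8.63% of all genes tested, and 0 lower, against 4.81%. The median log2 change of the 10 was 0.07, against -0.14 for all genes tested. The libraries of the groups did not overlap for 9 of the 10 genes, as for 76.4% of all genes tested. Smad6 was the gene whose groups overlapped.

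**Figure D1:**
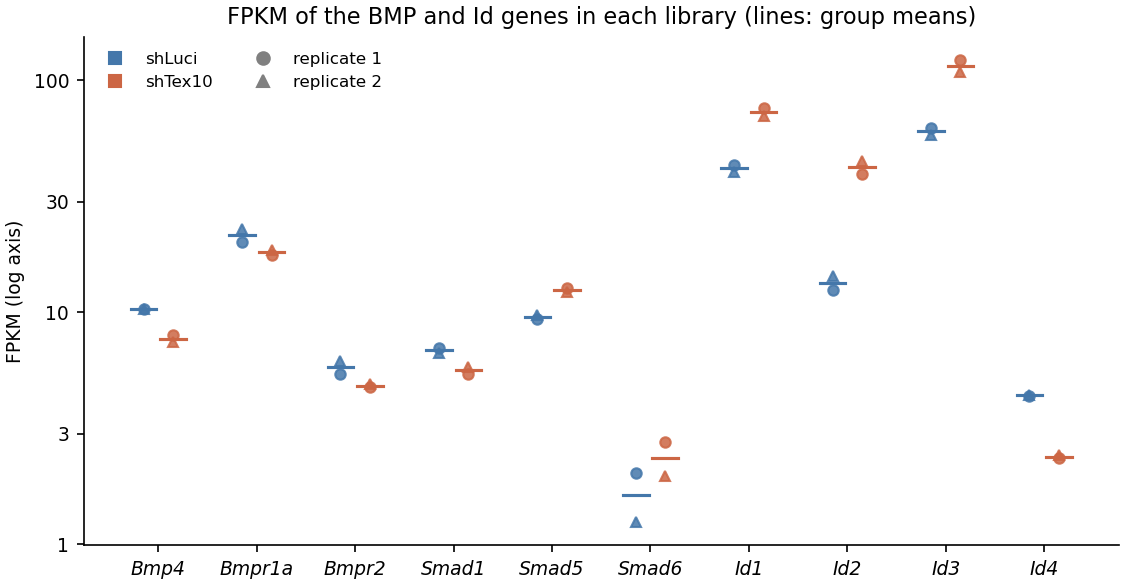
FPKM (log axis) of each of the 10 genes in the 2 shLuci (blue) and 2 shTex10 (orange) libraries, with circles for replicate 1, triangles for replicate 2 and lines for group means. Id1, Id2, Id3 and Smad5 lie higher in both shTex10 libraries, and Id4 and Bmp4 lower.

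The ligand gene Bmp4 (mm9 chromosome 14, 46999198 to 47010274) was one of the 2 genes that fell. Bmp4 stood at 10.3 and 10.4 FPKM in shLuci and at 7.94 and 7.44 FPKM in shTex10. Both shTex10 libraries were thus below both controls, with means of 10.3 ± 0.0199 and 7.69 ± 0.356 FPKM (SD, n = 2 each). On the log2 scale Bmp4 fell by 0.38 (SE 0.09, limma, Benjamini-Hochberg adjusted p = 0.0159), or -0.25 relative to all genes. The fall was no longer called with the libraries rescaled to the same named sum (log2 change -0.18, adjusted p = 0.169), nor without shLuci replicate 1 (0.0564), shLuci replicate 2 (0.0593) or shTex10 replicate 2 (0.0828), in a range over all alternatives from 0.00135 to 0.757. The row of a predicted gene, Gm15217, overlaps the Bmp4 locus, and the sources used here do not give whether strand was used in assigning reads.

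The receptor genes had lower means in shTex10 without passing the test. Bmpr1a (chromosome 14, 35224179 to 35315732), the gene of the type I receptor, stood at 20.1 and 22.9 FPKM in shLuci and at 17.6 and 18.6 FPKM in shTex10. Its log2 change was -0.23 (95% interval -0.48 to 0.02, limma, Benjamini-Hochberg adjusted p = 0.106). Bmpr2 (chromosome 1, 59820264 to 59934575), the gene of the type II receptor, stood at 5.45 and 6.17 FPKM in shLuci and at 4.78 and 4.89 FPKM in shTex10. Its log2 change was -0.22 (95% interval -0.47 to 0.02, adjusted p = 0.112 in the same test). In both genes the groups did not overlap, but relative to all genes the differences were -0.10 and -0.09. Bmpr1a stood at 3.69 and 3.70 times the FPKM of Bmpr2 in the shLuci libraries and at 3.69 and 3.80 times in the shTex10 libraries, a ratio that moved little between the groups.

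Of Smad1 and Smad5, which carry the signal from the receptors, Smad5 rose and Smad1 did not pass the test. Smad5 (chromosome 13, 56804370 to 56843739) stood at 9.37 and 9.73 FPKM in shLuci and at 12.7 and 12.3 FPKM in shTex10. Smad5 rose by 0.35 on the log2 scale (SE 0.09, limma, Benjamini-Hochberg adjusted p = 0.0199), or 0.49 relative to all genes. This call was lost when any single library was left out: without shLuci replicate 1 the adjusted p was 0.109, without shLuci replicate 2 it was 0.0638, without shTex10 replicate 1 it was 0.0991 and without shTex10 replicate 2 it was 0.0561, in a range over all alternatives from 0.00166 to 0.783. Smad1 (chromosome 8, 81862297 to 81923367) stood at 7.02 and 6.68 FPKM in shLuci and at 5.41 and 5.83 FPKM in shTex10. Its log2 change was -0.25 (95% interval -0.48 to -0.01), which did not pass after adjustment (limma, Benjamini-Hochberg adjusted p = 0.0725). The ratio of Smad5 to Smad1 FPKM was 1.33 and 1.46 in the shLuci libraries and above 2 in both shTex10 libraries, a description without a test.

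Smad6 (chromosome 9, 63800882 to 63869866), an inhibitory SMAD and BMP target, was the lowest of the 10 genes. Smad6 stood at 2.03 and 1.25 FPKM in shLuci and at 2.75 and 1.97 FPKM in shTex10, with shLuci replicate 1 above shTex10 replicate 2. Its log2 change was 0.35 (95% interval -0.10 to 0.81, limma, Benjamini-Hochberg adjusted p = 0.158). The test passed without shLuci replicate 1 (log2 change 0.57) and without shTex10 replicate 2 (log2 change 0.52), where 1 group had only 1 library. The highest adjusted p over all alternatives was 0.702. With all 4 libraries and the replicate number as a block the test passed as well (adjusted p = 0.00706), so the call for Smad6 depends on the libraries and the design used.

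**Figure D2:**
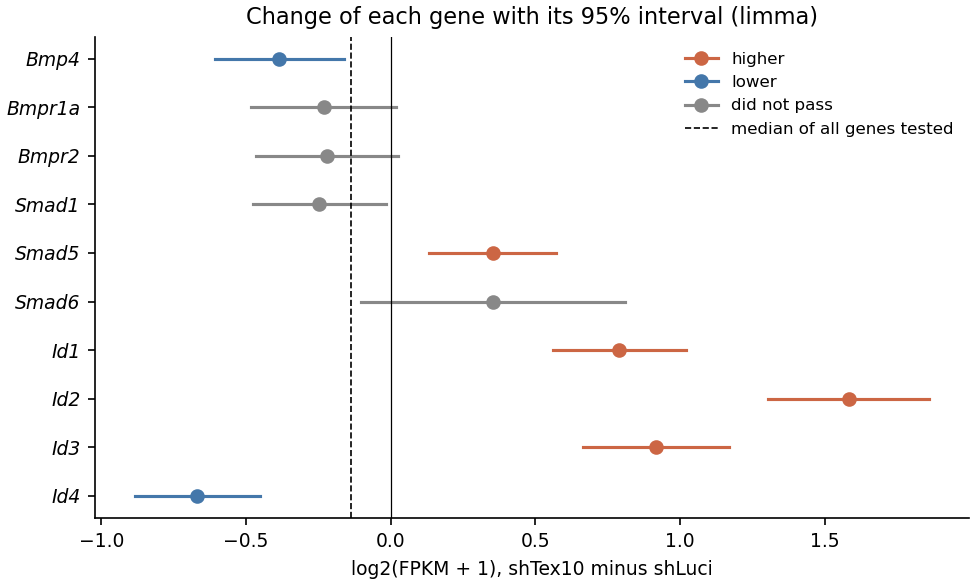
Log2 change on the log2(FPKM + 1) scale, shTex10 minus shLuci, of the 10 genes, with points for the estimate, bars for the 95% interval from limma and a dashed line at the median of all genes tested, -0.14. Id2 lies farthest to the right at 1.58, and Id4 farthest to the left at -0.67.

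The Id genes gave the largest changes of the group, and Id4 went the other way from Id1, Id2 and Id3. A RefSeq table of promoters (build GRCm38.p6) held 9 of the 10 genes by symbol, all but Id1. The 250 bases before the starts of Id2, Id3 and Id4, the matched genes of the Id family, are shown here. They read 5′ to 3′ on the gene's strand, and sequence farther from the start was not searched. Capitals mark GGCGCC, a GC-rich element that BMP-activated SMADs are known to bind. The windows are chr12:25096093-25096342 on the minus strand for Id2, chr4:136143572-136143821 on the plus strand for Id3 and chr13:48260866-48261115 on the plus strand for Id4.
Id2: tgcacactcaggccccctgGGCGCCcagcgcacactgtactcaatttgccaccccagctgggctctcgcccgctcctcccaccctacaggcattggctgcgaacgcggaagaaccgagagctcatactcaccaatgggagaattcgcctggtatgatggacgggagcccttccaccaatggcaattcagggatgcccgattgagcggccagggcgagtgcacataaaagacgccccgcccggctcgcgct
Id3: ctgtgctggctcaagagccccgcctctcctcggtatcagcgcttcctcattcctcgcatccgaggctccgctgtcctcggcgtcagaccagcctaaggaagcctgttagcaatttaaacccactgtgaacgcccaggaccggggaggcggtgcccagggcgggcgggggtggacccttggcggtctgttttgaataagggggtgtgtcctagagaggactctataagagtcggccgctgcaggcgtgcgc
Id4: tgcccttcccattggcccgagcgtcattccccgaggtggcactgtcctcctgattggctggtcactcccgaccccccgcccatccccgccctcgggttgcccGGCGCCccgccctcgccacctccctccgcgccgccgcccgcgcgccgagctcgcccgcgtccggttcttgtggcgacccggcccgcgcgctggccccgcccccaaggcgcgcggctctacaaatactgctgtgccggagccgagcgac
The element occurs once in the Id2 window, with its first base at -231 from the start, and once in the Id4 window, at -148. Id3 has 0 matches in its window. Among the other matched genes, Bmpr1a, Bmpr2 and 1 of 3 Smad5 windows hold the element, and Bmp4, Smad1 and Smad6 do not, so it occurs beside genes that rose, fell and did not pass. GGCGCC reads the same on both strands and is found in 9.59% of 32851 promoter windows of the same length. The shorter SMAD box GTCT, searched on both strands (AGAC), has 1 match in the Id2 window, 2 in Id3 and 0 in Id4, and is present in 82.9% of all windows. The palindrome GTCTAGAC, which holds a GTCT on each strand, is in none of these 3 windows and in 0.167% of all. These windows were 62.8% (Id2), 62.8% (Id3) and 75.6% (Id4) G and C, against a median of 52.4% over all windows. A match is a description of the sequence and not a bound site.

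Id2 (mm9 chromosome 12, 25778663 to 25780957) stood at 12.5 and 14.3 FPKM in shLuci and at 39.4 and 44.7 FPKM in shTex10. Its mean went from 13.4 ± 1.25 to 42.0 ± 3.79 FPKM (SD, n = 2 each), so the groups lay far apart for their spread. The log2 change of Id2 was 1.58 (SE 0.11, limma, Benjamini-Hochberg adjusted p = 0.000396), or 1.72 relative to all genes.

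Id1 (chromosome 2, 152562009 to 152563146) stood at 43.2 and 40.2 FPKM in shLuci and at 75.6 and 70.2 FPKM in shTex10. Its log2 change was 0.79 (SE 0.09, limma, Benjamini-Hochberg adjusted p = 0.00171). Id3 (chromosome 4, 135699736 to 135701307) stood at 62.5 and 58.3 FPKM in shLuci and at 122 and 108 FPKM in shTex10. The log2 change of Id3 was 0.92 (SE 0.10, adjusted p = 0.00145 in the same test). Relative to all genes the changes were 0.93 for Id1 and 1.05 for Id3, and in each gene both shTex10 libraries lay above both controls.

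Id4 (chromosome 13, 48356505 to 48360723) stood at 4.38 and 4.39 FPKM in shLuci and at 2.36 and 2.42 FPKM in shTex10. Replicates agreed closely, and the groups did not overlap. Id4 fell by 0.67 on the log2 scale (SE 0.09, limma, Benjamini-Hochberg adjusted p = 0.00242), with a change of -0.53 relative to all genes. The direction of Id1, Id2, Id3 and Id4 held under each of the 4 other scalings. With libraries rescaled to the same sum over all rows, unnamed rows included, the errors grew. The calls of Id1 (adjusted p = 0.378), Id3 (0.245) and Id4 (0.342) were lost there, while Id2 still passed (0.00626). The all-row sum was 1.40e+06 and 2.22e+06 FPKM in shLuci and 1.80e+06 and 1.72e+06 FPKM in shTex10. Unnamed rows took 56.3% of it in shLuci replicate 1, 71.6% in shLuci replicate 2 and 70.8% and 68.8% in shTex10. The 2 controls thus differed most in this scaling. Over all alternatives the log2 change ran from 0.737 to 1.01 for Id1 and from 0.827 to 1.15 for Id3. For Id4 the range was -0.849 to -0.495. The highest adjusted p of these 3 genes were those with the same all-row sum.

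**Figure D3:**
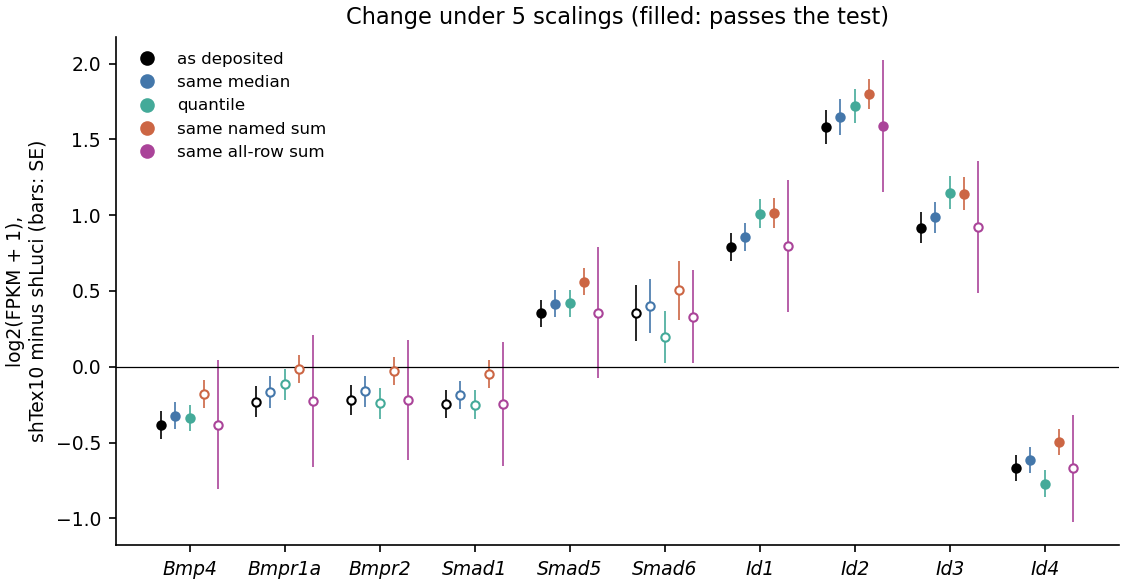
Log2 change on the log2(FPKM + 1) scale (shTex10 minus shLuci, bars for SE) of the 10 genes under 5 scalings, filled where the adjusted p is under 0.05. The sign of each gene is the same under all 5, the bars are widest with the same all-row sum, and Id2 is filled throughout.

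The order of levels among the 10 genes changed at Id2. In shLuci the order from high to low was Id3, Id1, Bmpr1a, Id2, Bmp4, Smad5, Smad1, Bmpr2, Id4 and Smad6, and no 2 neighbours overlapped between their libraries. In shTex10 Id2 stood above Bmpr1a and Smad5 above Bmp4, and Id4 and Smad6, the lowest, overlapped. Id3 made up 51.0% and 49.8% of the summed FPKM of Id1 to Id4 in shLuci and 51.0% and 47.9% in shTex10. The share of Id2 in that sum was 10.2% and 12.2% in shLuci and 16.4% and 19.9% in shTex10. The share of Id4 was 3.57% and 3.75% in shLuci and 0.987% and 1.07% in shTex10, so Id2 held a larger share of the family's RNA and Id4 a smaller one, which was not tested.

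E proteins, the transcription factors that ID proteins bind, are encoded by Tcf3, Tcf4 and Tcf12. Of the 3 genes tested, 2 fell, against 31.8% of all genes tested, 0 rose and 1 did not pass. Tcf4 stood at 6.02 and 6.76 FPKM in shLuci and at 2.57 and 3.14 FPKM in shTex10 (log2 change -0.94, SE 0.12, limma, Benjamini-Hochberg adjusted p = 0.00197). Tcf3, the E2A gene on chromosome 10, stood at 57.0 and 44.2 FPKM in shLuci and at 32.5 and 27.1 FPKM in shTex10 (log2 change -0.74, adjusted p = 0.0109 in the same test). The call of Tcf3 was lost with the same named sum (adjusted p = 0.0565) and with the same all-row sum (0.438), and that of Tcf4 with the same all-row sum (0.124). Tcf12 measured between 7.56 and 8.17 FPKM in shLuci and 7.59 and 7.66 FPKM in shTex10, with no call. Summed over the Id genes, FPKM was 123 and 117 in shLuci and 240 and 225 in shTex10, and summed over the E protein genes it was 70.6 and 59.1 in shLuci and 42.6 and 37.9 in shTex10. The ratio of these sums was 1.74 and 1.98 in the shLuci libraries and 5.62 and 5.95 in the shTex10 libraries. The ratio was chosen after the values were seen, and no test was applied to it.

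**Figure D4:**
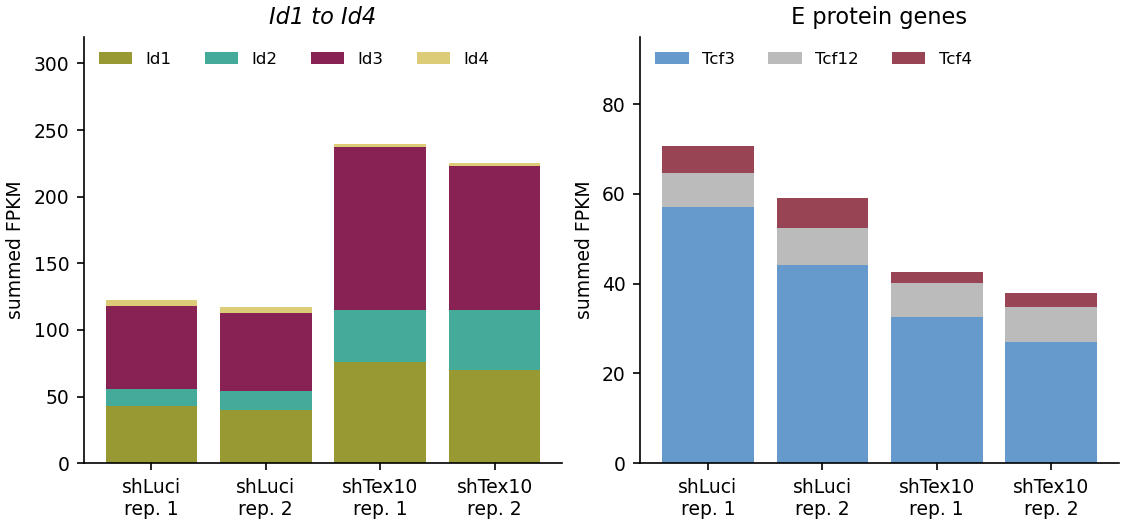
Summed FPKM of the Id genes (left) and of the E protein genes (right) in each library, stacked by gene. The Id sums are 123 and 117 in shLuci and 240 and 225 in shTex10, and the E protein sums are 70.6 and 59.1 against 42.6 and 37.9.

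A wider list of pathway genes held 67 names in 7 groups, of which 65 had a row of their own. The filter left 37 genes for testing, and the other 28 with a row averaged under 1 FPKM. Of the 37, 15 were higher, against 19.8% of all genes tested, 8 lower, against 31.8%, and 14 did not pass. Their median log2 change was 0.12, against -0.14 for all genes tested. With libraries rescaled to the same all-row sum, 6 of the 37 were called higher (Bmp7, Eng, Msx2, Gata2, Gata3 and Hand1) and 0 lower. Of all 11883 genes tested, 655 were then higher and 237 lower, together 7.51%. Every other call among these pathway genes was lost there.

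Among ligands other than Bmp4, 4 of 14 were tested, with 2 higher, against 19.8% of all genes tested, 1 lower, against 31.8%, and 1 not past the test. Bmp7 stood at 2.54 and 1.84 FPKM in shLuci and at 8.44 and 6.13 FPKM in shTex10 (log2 change 1.37, SE 0.18, limma, Benjamini-Hochberg adjusted p = 0.00225). Bmp7 thus lay below Bmp4 in shLuci, while the shTex10 libraries of the 2 genes overlapped. Bmp8b stood at 1.80 and 1.62 FPKM in shLuci and at 4.27 and 3.30 FPKM in shTex10 (adjusted p = 0.00417 in the same test), and its value is uncertain because the row of Oxct2b overlaps it and Bmp8a is a close copy. Gdf3, a TGF-beta family ligand of ES cells, fell from 59.9 ± 2.14 to 40.4 ± 1.15 FPKM (n = 2 each, limma, Benjamini-Hochberg adjusted p = 0.00414). Bmp2 had means of 1.26 and 0.951 FPKM and did not pass (adjusted p = 0.0907).

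Of 9 further receptors and co-receptors, 5 were tested, and 1 rose, 1 fell and 3 did not pass. Among all genes tested 19.8% rose and 31.8% fell, together 51.6%. Eng, the gene of the co-receptor endoglin, stood at 12.9 and 12.1 FPKM in shLuci and at 41.1 and 34.9 FPKM in shTex10 (log2 change 1.52, SE 0.11, limma, Benjamini-Hochberg adjusted p = 0.000427). The row of Fpgs overlaps that of Eng. Acvr2b, the gene of a type II receptor shared with activin, stood at 11.6 and 9.89 FPKM in shLuci and at 6.05 and 4.80 FPKM in shTex10 (log2 change -0.87, adjusted p = 0.00414 in the same test). Acvr1, Acvr2a and Rgmb did not pass. Rgmb was close to the threshold (adjusted p = 0.0515 in the same test) and gained a call under 5 of 14 alternatives. Under the filter, Bmpr1b and Rgma were lower in both shTex10 libraries than in both controls. Acvrl1 was higher in both, and Hfe2 overlapped between the groups.

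Among 14 secreted and membrane antagonists, 5 were tested, and 3 rose, against 19.8% of all genes tested, and 0 fell, against 31.8%. The other 2, Bambi and Dand5, did not pass. Twsg1, which encodes a secreted BMP-binding protein, rose from 16.7 ± 0.671 to 27.9 ± 0.251 FPKM (n = 2 each, limma, Benjamini-Hochberg adjusted p = 0.00201). Fst, the gene of follistatin, which binds activin and some BMPs, rose from 1.83 ± 0.0959 to 3.18 ± 0.341 FPKM (adjusted p = 0.00692 in the same test). Nbl1 rose from 4.15 ± 0.435 to 5.52 ± 0.222 FPKM (adjusted p = 0.0371), a call lost under 5 of 14 alternatives. These were no filter (0.0757), quantile normalization (0.0521), the same all-row sum (0.766) and the fits without shLuci replicate 2 and without shTex10 replicate 1. In those last fits its log2 change was 0.25 and 0.31. The adjusted p ranged from 0.00422 to 0.766. Nog and Chrd, the classical antagonists noggin and chordin, were under the filter, with Nog at 0.540 and 0.420 FPKM in shLuci and 1.51 and 0.875 FPKM in shTex10.

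Of 13 other SMADs and intracellular regulators, 12 were tested, and 3 rose, 4 fell and 5 did not pass. The 7 calls among 12 stand beside 51.6% of all genes tested, with 19.8% higher and 31.8% lower. Smad7, the other inhibitory SMAD, stood at 46.6 and 36.3 FPKM in shLuci and at 24.5 and 22.7 FPKM in shTex10 (log2 change -0.78, SE 0.14, limma, Benjamini-Hochberg adjusted p = 0.00621). Smad7, also a known target of the pathway, thus moved in the other direction from Id1, Id2 and Id3, for a reason that was not tested. Its call was lost with the same all-row sum (adjusted p = 0.401). Zfp423, which encodes a partner of BMP-activated SMADs, fell from 11.7 ± 2.34 to 5.68 ± 0.766 FPKM (n = 2 each, adjusted p = 0.00589 in the same test). Fkbp1a, whose protein holds type I receptors inactive, fell from 182 ± 1.99 to 125 ± 3.16 FPKM (adjusted p = 0.00411), and missed the threshold under quantile normalization (0.0502, in a range up to 0.639). Smad4, the common partner SMAD, had means of 28.2 ± 2.50 and 22.3 ± 1.79 FPKM (adjusted p = 0.0480), a call lost under 7 of 15 alternatives, among them each of the 4 other scalings and those without shLuci replicate 2 (0.250) and without shTex10 replicate 1 (0.220), in a range from 0.000701 to 0.809. Tob1, an antiproliferative gene whose protein binds SMADs, rose from 8.71 ± 0.941 to 16.0 ± 1.18 FPKM (limma, Benjamini-Hochberg adjusted p = 0.00280). The others that rose, Tob2 and the ubiquitin ligase gene Smurf1, changed by 0.35 and 0.32 on the log2 scale. Their calls were lost under 4 of 14 and 5 of 15 alternatives, among them no filter (adjusted p = 0.0588 and 0.0528) and the same all-row sum. The others were the fits without shLuci replicate 2 (log2 change 0.30 and 0.29) and without shTex10 replicate 1 (0.31 and 0.26). For Smurf1 the fit without shLuci replicate 1 (0.35) was one more. The adjusted p ranged from 0.00321 to 0.756 for Tob2 and from 0.00191 to 0.808 for Smurf1. For comparison, of the SMADs that serve Nodal and activin, Smad3 rose from 4.39 ± 0.0968 to 6.24 ± 0.539 FPKM (adjusted p = 0.0155), a call lost without shTex10 replicate 1 (0.0688, in a range up to 0.701). Smad2 did not pass, with means of 10.4 and 11.5 FPKM.

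Of 11 other BMP-responsive genes 6 were tested, and 5 rose, against 19.8% of all genes tested. On this list 0 fell, against 31.8%, and 1 did not pass, at a median log2 change of 1.20. Smad7, a target that fell, was counted with the intracellular regulators. Under the filter, Hey1 (means of 0.785 and 0.520 FPKM) was lower in both shTex10 libraries. Msx1 (0.293 and 0.479), Dlx3 (0.414 and 1.45) and Atoh8 (0.0426 and 0.118) were higher in both, and Dlx5 overlapped between the groups. Msx2, a homeobox gene, stood at 2.00 and 2.03 FPKM in shLuci and at 6.26 and 7.27 FPKM in shTex10 (log2 change 1.36, SE 0.10, limma, Benjamini-Hochberg adjusted p = 0.000468). The transcription factor genes Gata2 (from 1.24 ± 0.0138 to 3.83 ± 0.132 FPKM), Gata3 (from 2.01 ± 0.199 to 6.98 ± 1.08 FPKM) and Hand1 (from 5.99 ± 0.740 to 16.1 ± 1.78 FPKM) rose as well (n = 2 each, adjusted p = 0.000538, 0.000764 and 0.000946 in the same test). Tfap2a rose too, but averaged 0.899 FPKM in shLuci and met the filter through its shTex10 values. Dusp9, a phosphatase gene that BMP induces in ES cells, was the gene that did not pass, at 59.5 and 48.1 FPKM in shLuci and 56.0 and 46.6 FPKM in shTex10 (log2 change -0.07, 95% interval -0.42 to 0.29), and its sign changed between scalings, up to 0.16 with the same named sum.

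**Figure D5:**
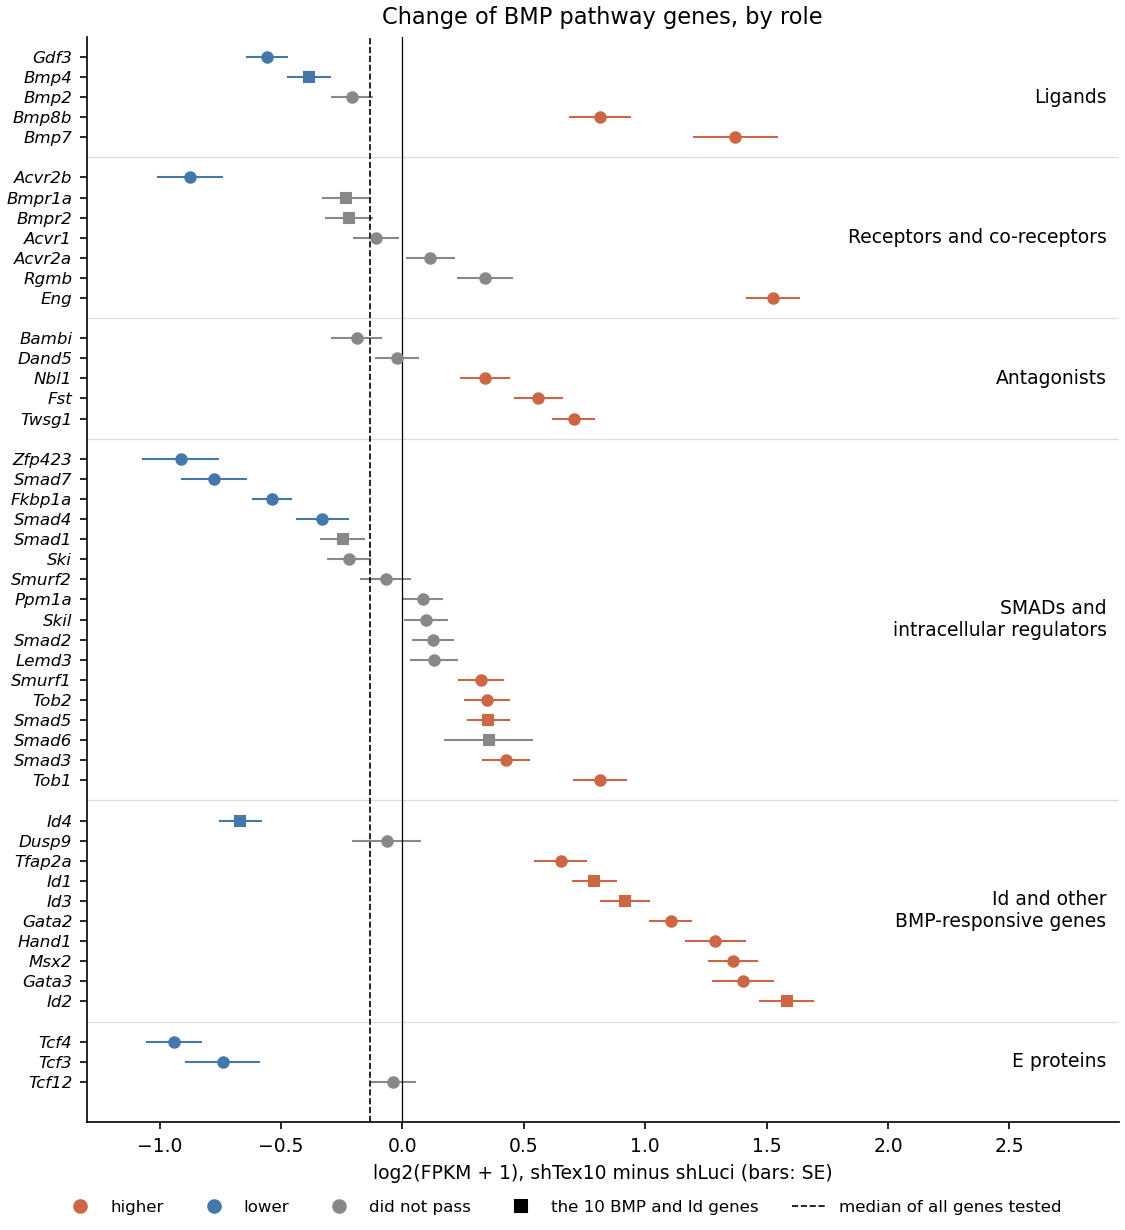
Log2 change on the log2(FPKM + 1) scale (shTex10 minus shLuci, bars for SE) of the tested pathway genes, grouped by role, with squares for the 10 BMP and Id genes and the dashed line at the median of all genes tested. The Id genes other than Id4 and 5 of 6 other BMP-responsive genes lie to the right, while ligands, receptors and SMADs lie on both sides.

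Several of these responsive genes also mark trophectoderm, and Gata3 and Hand1 stand on both lists. Of the 10 trophectoderm markers 8 were tested and 8 rose, against 19.8% of all genes tested. Plac1, 1 of these 8, averaged 0.932 FPKM in shLuci and met the filter through its shTex10 values. Cdx2 (means of 0.396 and 1.46 FPKM in shLuci and shTex10) and Elf5 (0.0358 and 0.0693 FPKM) were under the filter. The summed level of the list was 261 and 270 FPKM in shLuci and 595 and 588 FPKM in shTex10, with Elf5 listed at 0 in 1 library. Most of that sum came from the keratin genes Krt8 (means of 132 and 289 FPKM) and Krt18 (means of 112 and 236 FPKM). Of the 10 primitive endoderm markers 4 were tested, with 2 higher, against 19.8% of all genes tested, and 1 lower, against 31.8%. The sum of that list was 165 and 154 FPKM in shLuci and 267 and 267 FPKM in shTex10. Sparc, with means of 120 and 228 FPKM, carried that difference, while Lama1 fell from 9.19 to 2.38 FPKM. Dab2 was the other gene that rose, with means of 1.28 and 3.29 FPKM, and Col4a1 did not pass. Gata6, Gata4, Sox17, Sox7 and Foxa2, which define that lineage, stayed under 1 FPKM in each library. Under the filter, Sox17 and Pdgfra were higher in both shTex10 libraries than in both controls, and Sox7 was lower. Gata6, Gata4 and Foxa2 overlapped between the groups. Of the 8 mesoderm markers 3 were tested and 3 rose, against 19.8% of all genes tested: Eomes, Wnt3 and Snai1. Eomes also stands on the trophectoderm list, and Wnt3 averaged 0.858 FPKM in shLuci and met the filter through its shTex10 values. The sums of the mesoderm list were 8.62 and 7.18 FPKM in shLuci and 19.6 and 15.8 FPKM in shTex10. These 3 genes carried that difference. Under the filter, Mixl1, Tbx6 and Kdr were lower in both shTex10 libraries than in both controls. Mixl1 stood at 0.364 and 0.235 FPKM in shLuci and at 0.031 and 0.0848 FPKM in shTex10. Kdr stood at 0.896 and 0.943 FPKM in shLuci and at 0.757 and 0.812 FPKM in shTex10. Mesp1 overlapped between the groups. T, which defines early mesoderm, stood between 0.861 and 1.09 FPKM in all libraries. Of the 10 fibroblast markers 4 were tested, with 0 higher and 1 lower, against 19.8% and 31.8% of all genes tested. The sums of that list overlapped between the groups, at 38.2 and 29.6 FPKM in shLuci and 43.9 and 32.6 FPKM in shTex10. Lum and Fap were listed at 0 in some libraries. The 8 ES cell markers were present in each library, Pou5f1 at 549 FPKM or more, and 7 of the 8 fell, against 31.8% of all genes tested. The part of such shifts in cell state in the changes of the Id genes was not tested. In bulk RNA a change in the number of cells of a type cannot be told apart from a change in RNA per cell.

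Genes with the pattern closest to Id1 over the 4 libraries, by Euclidean distance between centred log2(FPKM + 1) values, were Cln3 (distance 0.0193), Zxdc (0.0258) and Sorcs2 (0.0264). Closest to Bmp4 were Ddx49 (0.0120), Glyr1 (0.0139) and Fastkd3 (0.0147). These distances rest on 4 libraries.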

How the data were processed

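Poly(A) RNA of 2 shLuci and 2 shTex10 samples was measured, grouped by the labels. The authors deposited FPKM per library, without pooling of replicates. Tools listed in the submitters' processing notes are Cufflinks 2.1.1, Bowtie2 2.1.0 and TopHat2 2.0.10, with build mm9. The role of each, the annotation and any use of strand were not stated there or in the labels. Here, rows sharing a gene name were summed and unnamed rows left out. FPKM are relative to each library's total, so abundant features shift all others. The test, in limma 3.58.1 (R 4.3.3), took log2(FPKM + 1) of genes averaging 1 FPKM or more (eBayes with trend, no replicate block, Benjamini-Hochberg over all 11883 genes), after the script was tested on simulated data. Counting intervals need a depth, which is unknown.

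The 10 genes and all lists were chosen with earlier results of these data known. Named genes were Tex10, the 10 genes, the tested genes of 7 pathway lists (those with the smallest p in detail), and the 3 genes nearest in pattern to Id1 and to Bmp4. Genes under the filter and markers (5 lists) were named after their values were seen. Alternatives were pseudocounts of 0.1 and 0.5, no filter or a mean of at least 5, 4 scalings, eBayes without trend, the replicate block, the highest row per name and leaving out each library. Promoter sequences are RefSeq's for GRCm38.p6, while the tables' coordinates are mm9, and none were converted.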

Additional observations from a re-analysis of the deposited data

How the results depend on the processing

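For the 10 genes, 129 of 148 values under the alternatives kept their direction and side of the threshold, 13 lost the call, 6 gained one and 0 changed sign. For 38 other named genes, Tex10 included, these numbers were 489 of 554, 37, 12 and 16. As deposited, 6 of the 10 genes were called (4 higher, 2 lower), beside 51.6% of all genes tested. Rescaled to the same sum over all rows, 1 was called (1 higher, 0 lower), beside 7.51% of all genes tested (655 higher, 237 lower). Standard errors there were several times larger (0.43 against 0.09 for Bmp4). With the same named sum, 4 of the 10 were higher and 1 lower, beside 43.3% of all genes tested. Among all genes 3234 were then higher and 1906 lower, against 2350 and 3779 as deposited. With a mean of at least 5 FPKM, 4 of the 10 were higher and 1 lower, as Id4 was not tested. That stood beside 51.7% of the 8542 genes tested at that setting (1292 higher, 3120 lower). The replicate block called 10 of the 10 (5 higher, 5 lower), beside 75.1% of all genes tested (3210 higher, 5709 lower). No source says that replicate numbers pair samples, and differences between replicates 1 and 2 correlated across genes at 0.331 between the groups, so the block is given here only. Leaving out single libraries gave 4 to 5 of the 10 genes called (3 to 4 higher, 1 to 2 lower), 2131 to 2320 genes higher and 3293 to 3468 lower. The lone library of a group was then assumed to vary like the other group.

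The named genes that changed sign, 5 in number, had not passed the test. With the same named sum the log2 change was 0.056 for Acvr1, 0.11 for Dand5, 0.16 for Dusp9, 0.14 for Smurf2 and 0.16 for Tcf12. With the same median it was 0.019 for Dand5, 0.0020 for Dusp9 and 0.023 for Tcf12, and under quantile normalization 0.15 for Dusp9 and 0.0055 for Smurf2. Without single libraries it ran from -0.068 to 0.026 for Dand5, from -0.22 to 0.085 for Dusp9, from -0.15 to 0.0072 for Smurf2 and from -0.088 to 0.012 for Tcf12. The cause of these changes was not tested, and the depth of the libraries limits Smad6 and other low genes to an extent that FPKM do not show.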

Other observations

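Unnamed transcripts near the 10 genes were few. Within 50 kb of their loci lay 9 rows without a gene name, beside 3 of the genes (7 rows near Bmpr1a), and the other 7 genes, the Id genes among them, had none. The row with the highest values, mm9 chromosome 14, 35179743 to 35179931, measured 17.6 and 24.3 FPKM in shLuci and 8.44 and 11.5 FPKM in shTex10. It spans 188 bp, and FPKM of such short features are unstable. Among the 9 rows the groups did not overlap in 6, beside 76.4% of the named genes tested. Some of these 6 were higher in shTex10 and some lower. The 9 rows were not in the test.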
